A study of Homo sapiens with 6 samples.

Results

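CDK inhibitor genes encode the proteins that bind and restrain the cyclin-dependent kinases (CDKs), the enzymes that drive a cell through its division cycle. The 7 genes examined were CDKN1A, CDKN1B, CDKN1C, CDKN2A, CDKN2B, CDKN2C and CDKN2D, of 19974 protein-coding genes on chromosomes 1 to 22 and X. A peak or a differential region was taken as theirs when it overlapped the gene span in RefSeq GRCh38, extended by 2000 bp on each side. By this rule they held 81 of 323713 peaks in 4 lists, 11 of 21714 differential H3K4me3 regions and 1 of 5401 differential H3K27me3 regions. The rule uses gene names and no measured value, but the family was picked with earlier results of these data known.

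D283 is an established cell line from a Group 3 medulloblastoma, and all libraries came from D283 tumorspheres, cultures in which the cells float as clusters. OTX2 is a homeodomain transcription factor that Group 3 tumours express at high levels. Tumorspheres treated with 30 nM of an siRNA against OTX2 are called OTX2low, and those treated with 30 nM of a scramble control siRNA are called OTX2high. H3K4me3 and H3K27me3 were each mapped by ChIP-seq in 1 library per condition, with IgG libraries as background, so no difference given here has a replicate check.

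CDK inhibitors form a pair of families. The CIP/KIP proteins, p21 (CDKN1A), p27 (CDKN1B) and p57 (CDKN1C), bind complexes of many cyclins and CDKs, while the INK4 proteins, p16 (CDKN2A), p15 (CDKN2B), p18 (CDKN2C) and p19 (CDKN2D), bind the cyclin D kinases CDK4 and CDK6 and so keep the RB protein active. CDKN2A also encodes ARF, an inhibitor of MDM2 and thus an activator of p53, from a separate upstream start, and it lies next to CDKN2B in a locus known as a classical target of Polycomb repression. H3K4me3 marks active and poised promoters, H3K27me3 is the mark written by Polycomb repressive complex 2, and promoters that carry both marks are called bivalent.

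The H3K4me3 libraries held 33137731 tags in OTX2high and 20914582 in OTX2low, and the H3K27me3 libraries held 40271458 and 33885628 tags. The peak list of the H3K27me3 sample labelled OTX2high has a file header that names OTX2low, and the list of the sample labelled OTX2low has one that names OTX2high. Each H3K27me3 list is therefore called by its sample label, and no direction between conditions was read from these lists. Fragment length, which bears on how far peaks merge, was estimated at 169 bp for H3K27me3 labelled OTX2high and at 78 bp for that labelled OTX2low. Among marker genes of this tumour type (OTX2, CRX, IMPG2, NRL and RCVRN), 4 of 5 carried an H3K4me3 peak in both conditions. The markers of other cell types carried one in OTX2high at 1 of 3 endothelial, 2 of 3 mesenchymal, 1 of 4 glial and 3 of 3 SHH or granule lineage genes. The counts in OTX2low were the same, and RCVRN, CD3E, PECAM1, TEK, COL1A2, GFAP, MBP and MOG had no peak in either list. The part of other cells in the results was not tested. At OTX2 itself the region with the most H3K4me3 reads held 3119.1 in OTX2high against 1767.53 in OTX2low, a log2 ratio of 0.82 by the authors' deposited table. A histone mark does not measure how far an siRNA lowers its target, so the silencing itself was not checked here.

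RefSeq GRCh38.p14 promoter windows matched 6 of the 7 genes at 9 start sites, each window being the 250 bases before the start. CDKN1C was not matched. Shown first are the windows of CDKN1A, at chr6:36678464-36678713 on the plus strand, and of the start of CDKN2C furthest along the gene, at chr1:50969995-50970244 on the plus strand, because these were the 2 starts that a differential H3K4me3 region covered. Next stand the windows of the INK4 locus, all on the minus strand, because 3 neighbouring starts there differed in H3K27me3. They are the p16 start of CDKN2A at chr9:21974858-21975107, its ARF start at chr9:21995325-21995574, and CDKN2B at chr9:22009306-22009555. All run 5′ to 3′ along the gene's own strand, and capitals mark the GC box GGGCGG or the CCAAT box, on either strand.
CDKN1A: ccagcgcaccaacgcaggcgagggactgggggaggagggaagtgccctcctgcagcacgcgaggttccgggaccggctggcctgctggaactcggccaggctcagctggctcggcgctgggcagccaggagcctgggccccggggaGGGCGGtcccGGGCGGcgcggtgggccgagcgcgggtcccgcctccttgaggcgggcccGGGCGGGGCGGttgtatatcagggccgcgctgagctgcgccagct
CDKN2C last start: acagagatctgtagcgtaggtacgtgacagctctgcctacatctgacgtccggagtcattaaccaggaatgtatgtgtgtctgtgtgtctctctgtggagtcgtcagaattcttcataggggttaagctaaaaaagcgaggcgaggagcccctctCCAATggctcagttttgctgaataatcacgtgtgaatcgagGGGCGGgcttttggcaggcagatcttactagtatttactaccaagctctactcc
CDKN2A p16 start: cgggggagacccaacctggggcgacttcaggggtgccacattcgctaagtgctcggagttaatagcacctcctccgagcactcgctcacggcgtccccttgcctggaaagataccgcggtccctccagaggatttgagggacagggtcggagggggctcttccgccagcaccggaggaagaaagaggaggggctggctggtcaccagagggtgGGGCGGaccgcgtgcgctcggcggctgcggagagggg
CDKN2A ARF start: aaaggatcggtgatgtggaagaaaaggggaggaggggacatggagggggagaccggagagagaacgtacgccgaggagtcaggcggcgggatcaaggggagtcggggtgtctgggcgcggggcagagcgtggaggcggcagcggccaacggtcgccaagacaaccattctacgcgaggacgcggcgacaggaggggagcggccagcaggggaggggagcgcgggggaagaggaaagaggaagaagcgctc
CDKN2B: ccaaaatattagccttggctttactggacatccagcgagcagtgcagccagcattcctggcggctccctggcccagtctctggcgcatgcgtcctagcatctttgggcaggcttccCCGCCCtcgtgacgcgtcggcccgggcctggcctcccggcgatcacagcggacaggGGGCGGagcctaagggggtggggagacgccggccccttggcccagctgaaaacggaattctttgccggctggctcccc

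The GC box GGGCGG, the element read by SP and KLF factors, was found in 7 of the 9 windows, against 53.7% of 22132 protein-coding promoter windows of the same length. CDKN1A held 4 matches, of which the last 2 overlap, CDKN2B held 2, and the ARF start held none. CCAAT, the element of NF-Y, was found in 3 of 9 windows (CDKN1B, the last CDKN2C start and CDKN2D), against 32.7% of all windows. TTTNNCGC, an E2F-type element, was found in the CDKN2D window alone, against 7.22% of all windows, and TATAAA in 0 of 9, against 9.0%. TAATCC, the core bound by OTX-type homeodomains, was also found in 0 of the 9 windows and in 4.86% of all windows. These are matches of letters within 250 bases on both strands and say nothing of binding, and no match says nothing about the factor. The ratio of observed to expected CpG was 1.16 at CDKN2D and 1.08 at the ARF start, above 98.3% and 95.3% of all windows, while the p16 start had 0.736 and CDKN2B 0.654, near the median of 0.711.

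All 7 CDK inhibitor genes carried H3K4me3 in both conditions. A peak overlapped 7 of 7 gene windows in each list, where 75.0% of all genes had one in OTX2high and 73.7% in OTX2low. An H3K4me3 peak lay over 9 of 9 start sites in both lists, against 64.3% of 22132 starts in OTX2high and 63.0% in OTX2low. No gene of the family thus lacked an H3K4me3 peak in either condition.

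**Figure D1:**
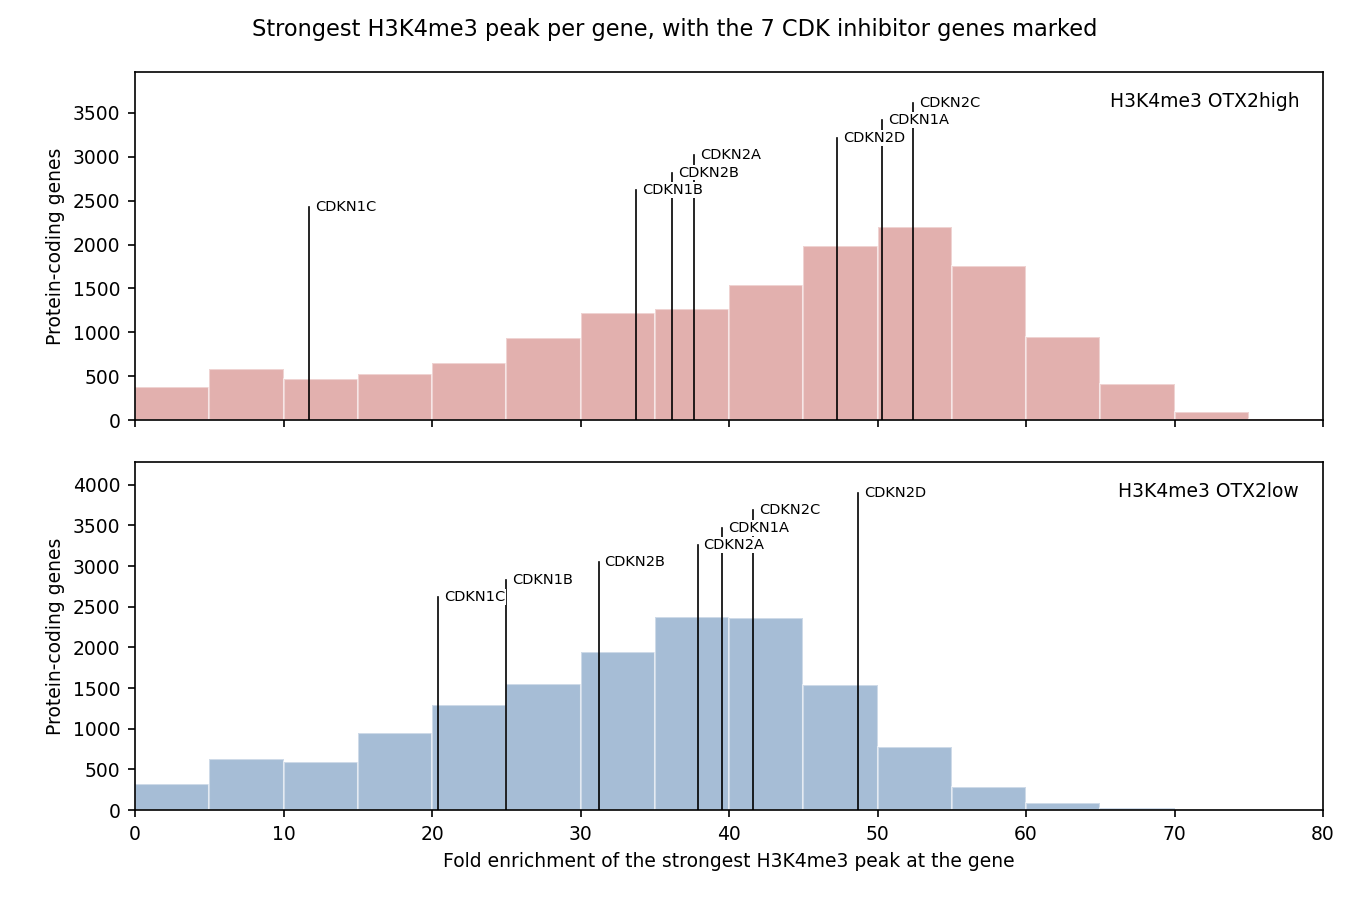
Number of protein-coding genes (vertical axis) by the fold enrichment of the strongest H3K4me3 peak at the gene (horizontal axis, ratio of ChIP over local background, bins of 5), for the OTX2high list above and the OTX2low list beneath, with black lines at the 7 CDK inhibitor genes. CDKN1C stands lowest of the 7 in both panels, at 11.7 in OTX2high and 20.4 in OTX2low, and CDKN2C is the highest in OTX2high, at 52.4. A strongest peak may also touch a neighbouring gene, as those of CDKN2C (FAF1) and CDKN2D (KRI1) do.

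The strength of the strongest peak differed widely within the family, as the histogram of peak enrichment shows. Fold enrichments here are the peak caller's own, from the authors' lists, and a rank is given within 1 list only. CDKN2C had the highest value in OTX2high, 52.4-fold, and was followed by CDKN1A at 50.3-fold, CDKN2D at 47.3-fold, CDKN2A at 37.7-fold, CDKN2B at 36.1-fold and CDKN1B at 33.7-fold. CDKN1C was last at 11.7-fold, above only 7.48% of the genes with a peak. In the OTX2low list CDKN2D came first at 48.7-fold, above 89.3% of genes, and CDKN1C was again last at 20.4-fold, above 17.0% of genes. Some of these peaks also touched a neighbouring gene. The strongest CDKN2D peaks touched KRI1, with summits 3356 bp (OTX2high) and 3282 bp (OTX2low) from the CDKN2D start. Peaks over that start had 36.4-fold in OTX2high and 29.1-fold in OTX2low. The CDKN2C peak of 52.4-fold touched FAF1, with its summit 1043 bp from the nearest CDKN2C start. With 1 library per condition there is no spread to say which neighbours in these orders differ.

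Breadth set CDKN1A and CDKN1B apart. The widest H3K4me3 peak at CDKN1A spanned 7663 bp in OTX2high and 6244 bp in OTX2low, wider than the widest peak of 98.5% of the genes with a peak in each list. CDKN1B had a peak of 9525 bp in OTX2high, wider than that of 99.6% of genes, while its widest in OTX2low was 4886 bp, wider than that of 95.5%. These widths include bases over neighbouring genes. Both of these CDKN1B peaks touched GPR19, that of OTX2high also touched LOC105369663, and both CDKN1A peaks touched DINOL. This CDKN1B peak of OTX2high covered 99.0% of the gene window together with its neighbour, and in OTX2low 4 peaks covered 77.7%. At the other end, the widest CDKN1C peak of OTX2high was 973 bp, wider than that of 8.20% of genes, and in OTX2low a single peak of 2168 bp stood in place of 2 shorter ones. Peak widths move with depth, which was higher in OTX2high, and its part in these widths was not tested.

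Differential H3K4me3 regions of the authors' deposited table split the family. All regions were higher in OTX2high at 4 genes (CDKN1A, CDKN1B, CDKN2C and CDKN2D), where 41.7% of all genes were called that way. All were higher in OTX2low at 2 genes (CDKN1C and CDKN2B), where 6.0% of all genes were called, and CDKN2A had no differential H3K4me3 region. Over the 10726 genes with a region in the authors' deposited table the median log2 ratio of OTX2high over OTX2low was 0.53, and the 6 CDK inhibitor genes with a region had a median of 0.50. With each ratio taken relative to that median, 2 genes were higher in OTX2high (CDKN1A and CDKN2D), against 23.1% of all genes, 3 in OTX2low (CDKN1C, CDKN2B and CDKN2C), against 18.7%, and 1 went both ways (CDKN1B). The table holds called regions only, and a gene without one has no ratio. Each adjusted p in it sets one library's reads against the other's and so does not test the conditions. Intervals of 95% given with a log2 ratio cover counting error only.

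**Figure D2:**
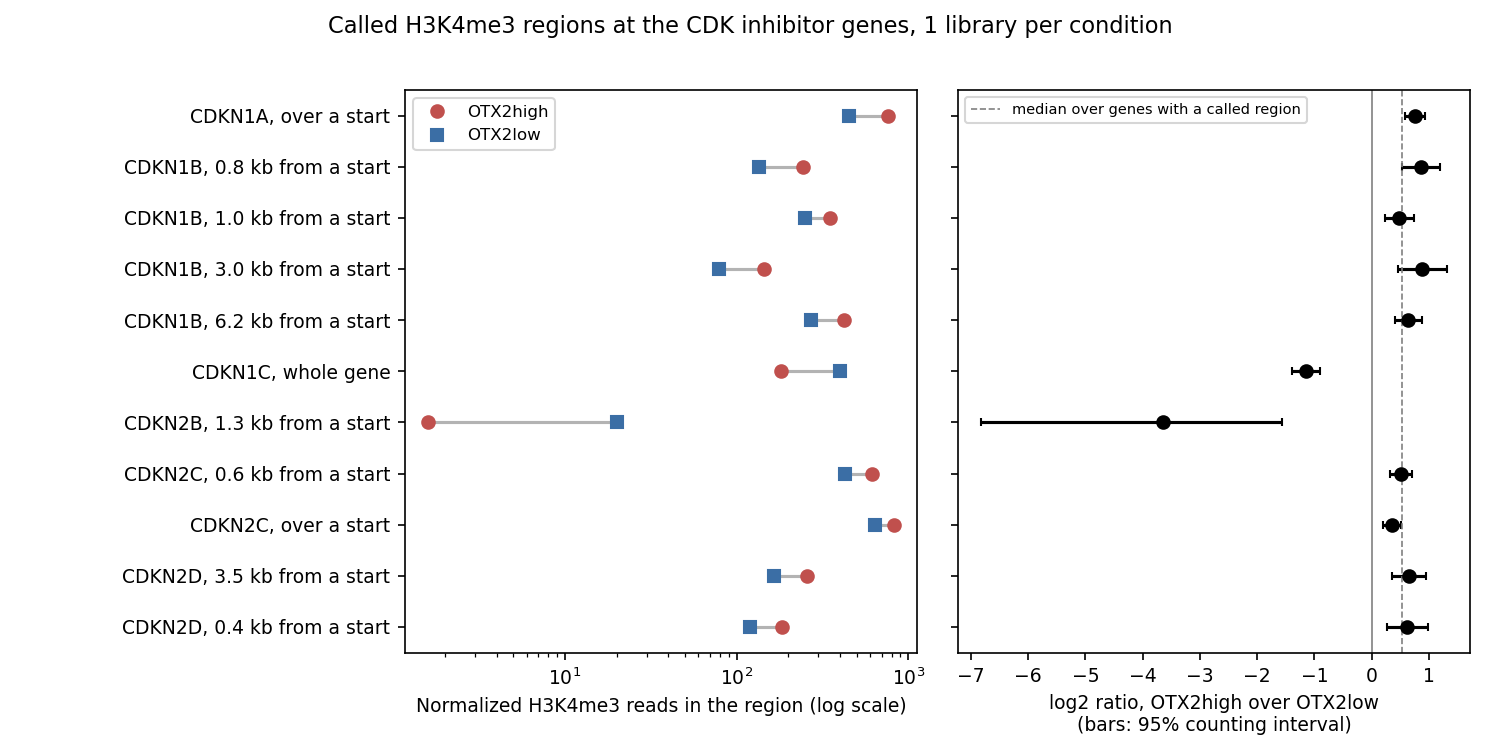
The 11 differential H3K4me3 regions at the CDK inhibitor genes, with normalized reads in OTX2high (red circles) and OTX2low (blue squares) on a log axis at left, and the log2 ratio of OTX2high over OTX2low with its 95% counting interval at right. The regions of CDKN1C (-1.15) and CDKN2B (-3.65) lie left of 0, and the other 9 lie right of it, around the dashed median of 0.53 over all genes with a region.

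CDKN1A encodes p21, the inhibitor that p53 induces after DNA damage. Its region chr6:36676101-36679300 covered the start site and also DINOL, a noncoding RNA gene beside it, and the authors' deposited table gives it 764.22 normalized reads for OTX2high against 452.54 for OTX2low. The log2 ratio there was 0.76 (95% counting interval 0.58 to 0.93; adjusted p listed as 0), higher than that of 78.2% of genes with a region. Relative to the median of genes with a region the difference was 0.23. The ratio of ChIP over IgG reads was listed in the authors' deposited table as 38.24 for OTX2high and 25.13 for OTX2low, so the direction was the same against the background library. In bulk chromatin like this, fewer cells with a mark and less of it per cell cannot be told apart.

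CDKN1B encodes p27, which accumulates in cells that leave the cycle. It had 4 differential regions in the authors' deposited table, none over the start site and all with more reads in OTX2high. The region upstream, chr12:12714601-12716600 at the neighbouring gene GPR19, held 244.9 and 135.39 normalized reads in OTX2high and OTX2low, a log2 ratio of 0.86 (0.53 to 1.19; adjusted p = 2.32e-06 in the authors' deposited table). Inside the gene, 1033 bp past the start, the authors' deposited table lists 348.61 and 249.46 reads and a log2 ratio of 0.48 (0.24 to 0.73; adjusted p = 0.00191). The ratio over IgG at this region was nearly level in the authors' deposited table, at 39.1 in OTX2high and 37.6 in OTX2low.

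The remaining CDKN1B regions lay further along. At chr12:12720401-12721600, within the gene, OTX2high had 144.39 reads and OTX2low 78.97, which is a log2 ratio of 0.87 (0.45 to 1.31; adjusted p = 0.000644 in the authors' deposited table). At chr12:12723601-12725600, which lies 1232 bp past the end of the gene at LOC105369663, the authors' deposited table gives 424.39 and 273.28 reads and a log2 ratio of 0.64 (0.40 to 0.87; adjusted p = 1.45e-06). The 4 intervals overlap, so no order among these regions can be read from them, and the start itself had no called difference. Against the median of genes with a region, the region with the most reads differed by 0.11. The one 1033 bp past the start lay below that median.

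CDKN1C encodes p57, an imprinted inhibitor expressed mainly from the maternal allele and known for its part in embryonic growth control and neuronal differentiation. Its H3K4me3 was higher in OTX2low, opposite to p21 and p27. The region chr11:2882801-2886000, which takes in the whole gene, has 181.88 normalized reads for OTX2high and 402.39 for OTX2low in the authors' deposited table, which is 2.22-fold more after silencing. Its log2 ratio was -1.15 (-1.40 to -0.90, adjusted p listed as 0 in the authors' deposited table). Relative to the median of genes with a region it was -1.68. Of all genes with a region, 8.24% had a lower ratio, and of the 9648 whose region overlapped a peak, 2.97%. Over IgG, the authors' deposited table gives a ratio of 29.58 for OTX2high and 56.6 for OTX2low.

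**Figure D3:**
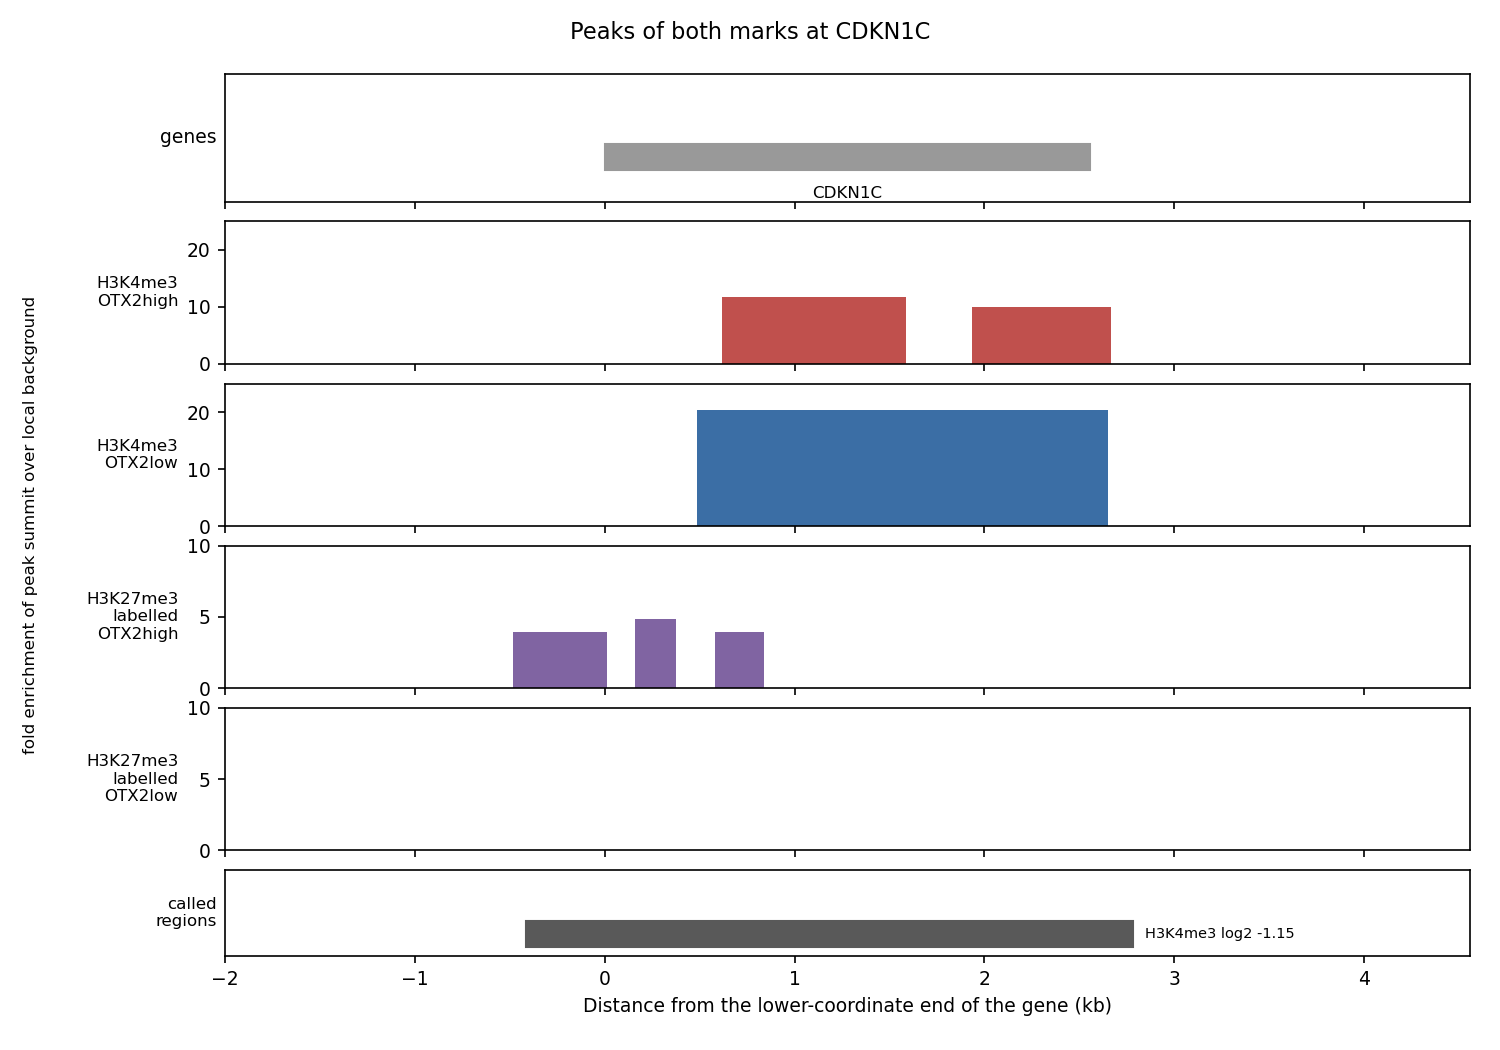
Peaks at CDKN1C by distance in kb from the lower-coordinate end of the gene. Each box is a peak, as wide as the peak and as tall as its fold enrichment at the summit. H3K4me3 is drawn in red and blue, H3K27me3 in purple and green, and the differential region in dark grey. The 2 H3K4me3 peaks of OTX2high, at 11.7-fold and 9.94-fold, are replaced by 1 peak of 20.4-fold in OTX2low, and the H3K27me3 list labelled OTX2low is empty.

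The peak lists show the same at CDKN1C, as the map of its peaks does. OTX2high had peaks of 973 bp and 731 bp with 11.7-fold and 9.94-fold enrichment, separated by a gap. OTX2low had 1 peak across both, of 2168 bp and 20.4-fold. Further off, 12518 bp from CDKN1C, lies KCNQ1DN, a noncoding gene of the same imprinted region. There the authors' deposited table gives 1.6 normalized reads for OTX2high and 17.55 for OTX2low. The log2 ratio of -3.46 (-6.64 to -1.34) thus rests on few reads. The next nearest region, 103626 bp away at NAP1L4, went the other way. It had 461.88 and 285.81 reads and a log2 ratio of 0.69 (0.47 to 0.92) in the authors' deposited table. KCNQ1 was also higher in OTX2high, with 11.97 reads against 0 and outside every H3K4me3 peak, by the authors' deposited table.

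At the INK4 locus, CDKN2A had H3K4me3 peaks over both of its starts and no differential region. The p16 start carried a peak of 1647 bp and 27.1-fold in OTX2high and of 1354 bp and 29.1-fold in OTX2low. At the ARF start the peak was 1925 bp and 37.7-fold in OTX2high and 1764 bp and 37.9-fold in OTX2low. The ARF start thus had the higher enrichment of these starts in each list, and neither start was called as different, which does not show that they were equal.

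CDKN2B, which encodes p15, an inhibitor known to respond to TGF-beta, had a start-site peak of 36.1-fold in OTX2high and 31.2-fold in OTX2low. Its differential region, chr9:22007001-22008000, lay 1305 bp from the start and outside every H3K4me3 peak. The authors' deposited table gives it 1.6 normalized reads for OTX2high and 20.06 for OTX2low, which are 2 and 16 whole reads. The log2 ratio of -3.65 has a counting interval of -6.82 to -1.56 (adjusted p = 0.000866 in the authors' deposited table). The ratio over IgG was 0.17 for OTX2high and 2.49 for OTX2low by the authors' deposited table. With only regions that overlap a peak, CDKN2B had no differential region left and CDKN1C was the only family member called higher in OTX2low.

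CDKN2C and CDKN2D encode p18 and p19, inhibitors of CDK4 and CDK6 that are expressed in neural progenitors and neurons. The region over the last CDKN2C start, chr1:50969101-50970700, has 824.05 normalized reads for OTX2high and 643.08 for OTX2low in the authors' deposited table, hence a log2 ratio of 0.36 (0.20 to 0.51; adjusted p = 0.000187). Only 15.4% of genes with a region had a lower ratio, and relative to the median of those genes the sign turned, to -0.17. The ratio over IgG at this region was 107.22 for OTX2high and 52.19 for OTX2low by the authors' deposited table, which is a larger difference of 1.04 on the log2 scale. A further region 645 bp upstream of the first start, chr1:50958101-50960100 at FAF1, had 612.65 and 429.97 reads and a log2 ratio of 0.51 (0.33 to 0.70; adjusted p = 2.13e-06 in the authors' deposited table).

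CDKN2D had a region on each side of the gene and none within it. The one upstream, chr19:10569401-10570700, 422 bp before the start, has 185.07 normalized reads for OTX2high and 120.34 for OTX2low in the authors' deposited table, hence a log2 ratio of 0.62 (0.27 to 0.98; adjusted p = 0.00618). The one past the gene's end, chr19:10564101-10565500 at KRI1, held 256.87 and 164.22 reads, a log2 ratio of 0.65 (0.35 to 0.95; adjusted p = 0.000404 in the authors' deposited table). Both lie 0.12 or less above the median of genes with a region. Without the 2000 bp extension CDKN2D had no differential region. Over all 9 start sites, an H3K4me3 differential region lay on 2, those of CDKN1A and the last of CDKN2C, against 18.0% of all starts.

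H3K27me3 was found at 3 of the 7 genes and absent from the lists at the other 4. In the list labelled OTX2high, peaks overlapped CDKN2A, CDKN2B and CDKN1C, 3 of 7 against 25.8% of all genes, and in the list labelled OTX2low CDKN2A and CDKN2B, 2 of 7 against 17.7%. CDKN1A, CDKN1B, CDKN2C and CDKN2D had no H3K27me3 peak in their windows. The nearest one to a start was 341940 bp away for CDKN1A, 109369 bp for CDKN1B, 527649 bp for CDKN2C and 128123 bp for CDKN2D in the list labelled OTX2high. The genes with H3K27me3 peaks were thus the INK4 locus and the imprinted CDKN1C.

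CDKN2A had the longest H3K27me3 cover in bp, and CDKN2B the larger share of its window in the list labelled OTX2high. CDKN2A had 14 H3K27me3 peaks in each list, which covered 13993 bp, or 44.3% of the window, in the list labelled OTX2high and 3342 bp, or 10.6%, in the list labelled OTX2low. Their strongest peaks were alike, at 8.35-fold and 8.09-fold. CDKN2B had 10 peaks over 5443 bp, or 52.3% of the window, in the list labelled OTX2high, with a strongest peak of 7.95-fold. In the list labelled OTX2low it had 3 peaks over 591 bp, with a strongest of 4.55-fold. CDKN1C had 3 peaks over 967 bp with at most 4.83-fold in the list labelled OTX2high and none in the other. Covered lengths move with the fragment lengths given above (169 and 78 bp), whose part here was not tested.

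**Figure D4:**
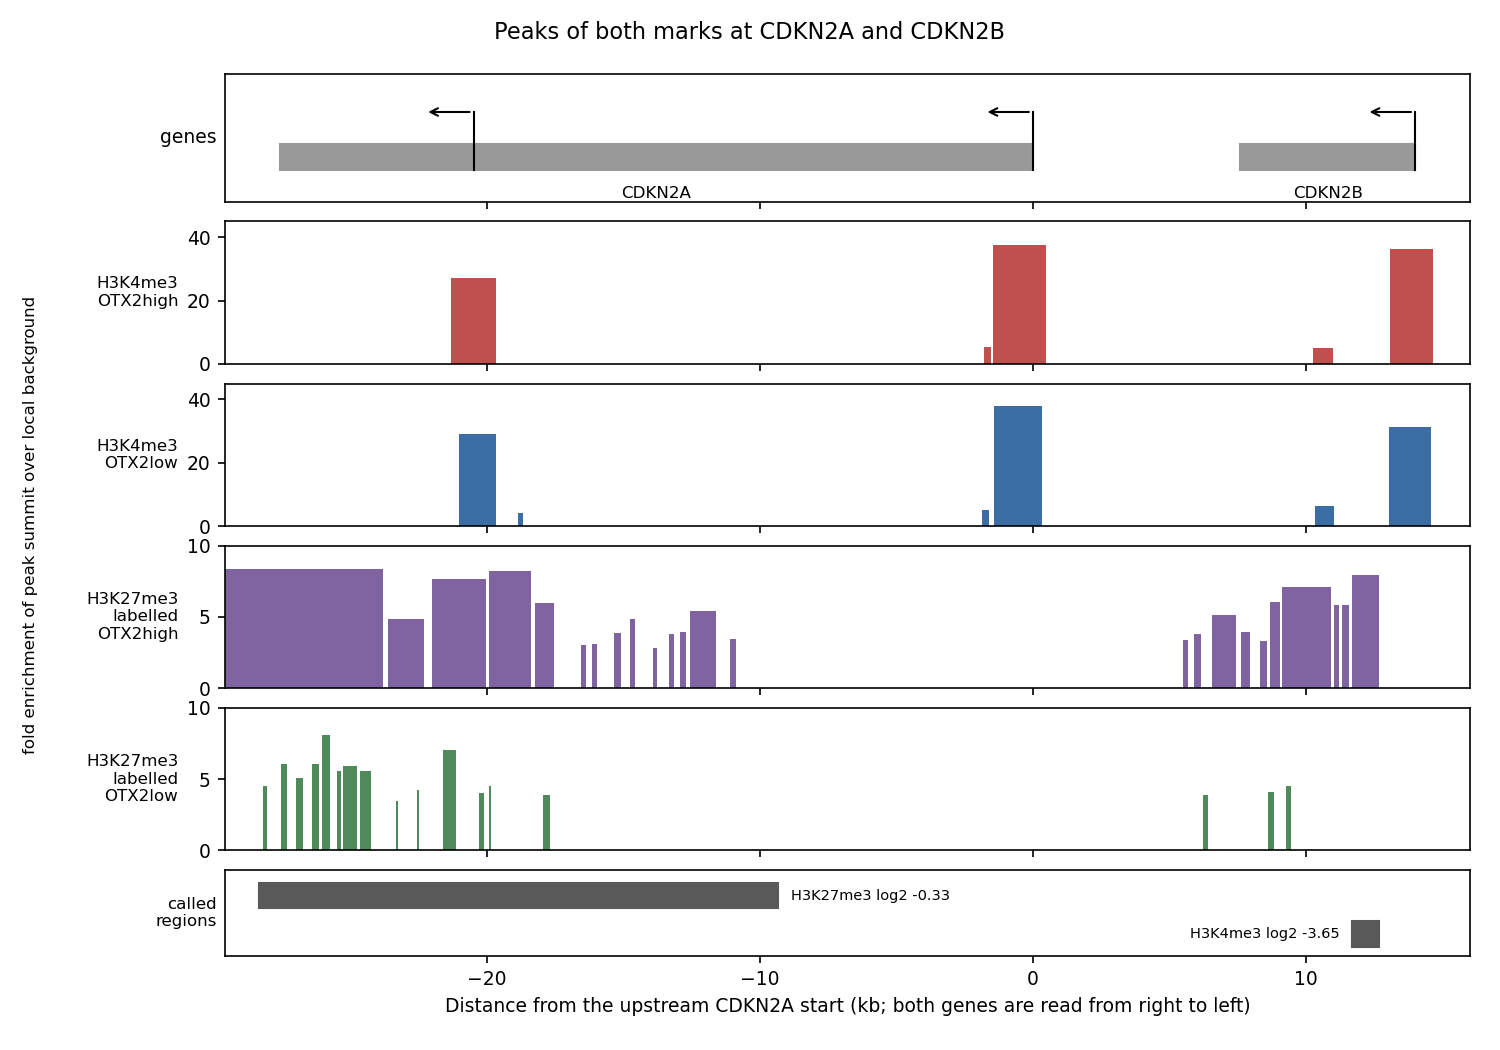
Peaks of H3K4me3 (red, OTX2high; blue, OTX2low) and H3K27me3 (purple and green, by sample label) across CDKN2A and CDKN2B, by distance in kb from the ARF start of CDKN2A. Each box is as wide as the peak and as tall as its fold enrichment, arrows mark the starts and dark grey bars the differential regions. Only peaks that overlap the extended span of either gene are drawn, the leftmost is cut at the edge, and peaks in the gap between the spans are not shown. H3K27me3 peaks stand around the p16 start and in the body of CDKN2B, none lies within 4347 bp of the ARF start, and H3K4me3 peaks stand at all 3 starts.

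H3K27me3 was unevenly spread over the locus, as the map of CDKN2A and CDKN2B shows. In the list labelled OTX2high the p16 start lay inside an H3K27me3 peak of 1993 bp and 7.67-fold, while in that labelled OTX2low it was 204 bp from the nearest peak. For the ARF start, the distance to the nearest H3K27me3 peak was 4347 bp by the former list and 6218 bp by the latter. For CDKN2B the distances were 1330 bp and 4537 bp. Of the 9 starts, H3K27me3 peaks labelled OTX2high covered 1 and those labelled OTX2low covered 0, against 7.18% and 1.92% of all starts. The windows printed above for these starts are thus the p16 window, which overlaps H3K27me3 peaks of both lists, and the ARF and CDKN2B windows, which overlap none.

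Both marks met at the same 3 genes. At CDKN2A, H3K4me3 peaks of OTX2high shared 1561 bp with H3K27me3 peaks labelled OTX2high and 454 bp with those labelled OTX2low. With the H3K4me3 peaks of OTX2low the shared lengths were 1449 bp and 260 bp. CDKN2B shared 660 bp and 620 bp, and CDKN1C 225 bp and 259 bp, with the H3K27me3 list labelled OTX2high alone. At CDKN2B the shared bases lay in weaker H3K4me3 peaks of 5.12-fold in OTX2high and 6.24-fold in OTX2low. These lay 2991 bp and 2953 bp from the start, and the start-site H3K4me3 peaks of CDKN2B overlapped no H3K27me3 peak. The lists come from bulk chromatin, in which the marks on the same nucleosome, on different alleles and in different cells cannot be told apart.

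The differential H3K27me3 table named CDKN2A alone among the 7. Its region chr9:21967001-21986000, which spans 19000 bp and includes the p16 start but not the ARF start, has 918.11 normalized reads for OTX2high and 1153.62 for OTX2low in the authors' deposited table, or 1.26-fold more in OTX2low. The log2 ratio of -0.33 (-0.46 to -0.20, an interval from less certain read numbers; adjusted p = 6.97e-06 in the authors' deposited table) equalled the median of -0.33 over the 2139 genes with a differential H3K27me3 region, so nothing remained relative to it. The count of 1 of 7 higher in OTX2low stands beside 7.10% of all genes, and 0 of 7 higher in OTX2high beside 3.35%. The ratio over IgG was 4.24 for OTX2high and 5.38 for OTX2low by the authors' deposited table. These directions use the condition names of the authors' deposited table, and they turn around if the labels of the peak lists' samples hold instead. The list labelled OTX2low was called against the IgG library of 85840108 tags, as was the H3K4me3 list of OTX2high, and the list labelled OTX2high against that of 55079542 tags, as was H3K4me3 of OTX2low. In the authors' deposited table a single read of OTX2high has the larger scaled value (1.14 against 0.875), as the shallower library would, which is the one labelled OTX2low. These values go with the header names and the table's directions.

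No H3K27me3 region was called at CDKN1C, but its neighbours in the imprinted cluster had some. The nearest, chr11:2891001-2904000, lay 5226 bp from CDKN1C at SLC67A1 (also named SLC22A18), with 200.09 normalized reads for OTX2high, 284.25 for OTX2low and a log2 ratio of -0.51 (-0.78 to -0.24) in the authors' deposited table. At PHLDA2 the authors' deposited table lists 354.44 and 492.41 reads and a log2 ratio of -0.47 (-0.68 to -0.27). Among 12 neighbours of the CDK inhibitor genes, 4 had H3K27me3 regions higher in OTX2low (7.10% of all genes) and 0 in OTX2high (3.35%). All 4 are in the cluster around CDKN1C and share their strongest regions, KCNQ1 with KCNQ1OT1 and SLC22A18 with PHLDA2, so these strongest regions number 2. SLC22A18 also had the region nearest to CDKN1C given above.

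Other genes of the pathway were read from 4 lists, described by counts from the authors' deposited table beside the median of 0.53 over all genes with an H3K4me3 region and the shares of all genes called, 41.7% toward OTX2high and 6.0% toward OTX2low. Of 13 CDKs and cyclins, the kinases and their activating subunits, 10 had H3K4me3 higher in OTX2high, 1 higher in OTX2low, 1 both ways and 1 no region, with a median log2 ratio of 0.57. The 13 RB and E2F family genes include those of the RB proteins, which are targets of CDK4 and CDK6. For these 13 genes the authors' deposited table gave 9 higher in OTX2high, 1 higher in OTX2low, 1 both ways and 2 without a region. Their median was 0.53. The 22 upstream regulators of the inhibitors counted 13, 2, 3 and 4 in the same order, with a median of 0.56 in the authors' deposited table. The last list, named Polycomb and antagonists at the INK4 locus, held 13 genes, and whether each acts there was not tested. It counted 9 higher in OTX2high (JMJD6, at 0.45, among them), 0 higher in OTX2low and 4 without a region. Its median was 0.61 in the authors' deposited table. The list medians lie near that of all genes with a region. In each list a larger share than 41.7% was higher in OTX2high, with no test of that difference. That share is over all genes, of which 75.0% had an H3K4me3 peak in OTX2high. In the 4 lists 13 of 13, 13 of 13, 21 of 22 and 13 of 13 genes had one. Of the 10726 genes with a region, 8331 had all regions higher in OTX2high.

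The list genes named next have the largest ratios among those with a region in a peak and 100 or more normalized reads in 1 library. Below that minimum, SP1 had 3.44 from 27.12 and 2.51 reads and TFDP2 -1.37 from 29.52 and 76.47 in the authors' deposited table. Toward OTX2high stood SMAD3, an effector of TGF-beta signalling, with normalized reads of 789.75 against 364.79, a log2 ratio of 1.11 (0.92 to 1.31) in the authors' deposited table. It was followed by ZBTB17, which encodes the factor MIZ1 that binds the CDKN2B promoter, with 1.04 (0.52 to 1.59), and by cyclin E1 (CCNE1) with 0.90 (0.45 to 1.37) in the authors' deposited table. Toward OTX2low stood TP73, a relative of p53 known to act on CDKN1C, with 79.77 and 151.68 reads and a log2 ratio of -0.93 (-1.32 to -0.53) in the authors' deposited table. KLF4, a zinc finger factor known to induce CDKN1A, had -0.77 (-0.96 to -0.57), and the cyclin CCNA1 had -0.48 (-0.71 to -0.25) in the authors' deposited table.

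In H3K27me3, the authors' deposited table held a region at few list genes. Among regions in a peak and with 100 or more reads in 1 library, those with the largest log2 ratios toward OTX2low were SMAD3 at -0.46 (-0.71 to -0.22), the Polycomb gene BMI1 at -0.46 (-0.67 to -0.25) and cyclin D1 (CCND1) at -0.35 (-0.45 to -0.26), the last with 1659.01 reads in OTX2high and 2115.7 in OTX2low. Higher in OTX2high were DTL at 0.80 (0.47 to 1.15) with 195.51 and 111.95 reads, and E2F5 at 0.63 (0.35 to 0.92) with 253.82 and 163.55, by the authors' deposited table. Both of these lay outside every H3K27me3 peak, had ratios over IgG below 1 in both conditions, and are named after their values were seen. The directions carry the same doubt about condition names as that of CDKN2A.

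List genes whose H3K4me3 ratio was nearest to that of a CDK inhibitor gene, by the difference in log2 ratio between the 2 libraries, were sought last. For CDKN1A they were CCNB1 and RNF2, both at 0.74, for CDKN1B CDK4 and E2F6, tied with TFDP1 at 0.64, and for CDKN2D CDK1 at 0.65, then CDK4 at 0.64 in a tie with E2F6, TFDP1 and KDM6B (0.66), all from the authors' deposited table. For CDKN2C they were DDB1 and E2F5, both at 0.36 in the authors' deposited table. CDKN1C had no neighbour closer than TP73 at -0.93 and TFDP2 at -1.37, each 0.22 away, and CDKN2B lay 2.28 from the closest, TFDP2, in the authors' deposited table. The ratios matched for CDKN1B and CDKN2D come from regions 1232 bp and 960 bp outside the gene spans. Without the window extension CDKN1B had 0.48 and CDKN2D had no value. A match rests on 1 pair of libraries and many genes sit close to the median.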

How the data were processed

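The members and gene lists were chosen with earlier results of these data known. The submitters' processing notes name Bowtie2 (version 2.3.3.1), MACS2 (version 2.1.1.20160309) and the build GRCh38. Each library had its own narrow peaks, called against an IgG library at a q-value of 0.05 per the file headers. For each peak the authors deposited a pileup signal, -log10 p and q values and a fold enrichment ratio.

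Differential regions came from diffReps (version 1.55.6 per the file headers), which ran a G-test between the libraries with a p cutoff of 0.0001, windows of 1000 bp (H3K4me3) or 10000 bp (H3K27me3), and adjustment over 663990 or 57553 windows. The deposited columns hold read signal scaled per library, ratios over IgG, a log2 ratio, a p-value and an adjusted p-value. The headers name hg19 on the diffReps command line. The submitters' notes name GRCh38 alone, and coordinates were read as GRCh38, at which the H3K4me3 regions of 9648 of 10726 genes overlapped a peak. The hotspot tables were not used here, and the immune marker list is not reported here.

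Groups followed sample titles. The titles and silencing labels of the 2 IgG samples name opposite conditions, so these samples stayed unassigned. A single read counts 0.798 (OTX2high) or 1.25 (OTX2low) for H3K4me3 and 1.14 or 0.875 for H3K27me3. Dividing by these gave whole reads within 0.05 for 99.87% of H3K4me3 values in OTX2low and over 99.9% in the other columns, from which exact conditional (Clopper-Pearson) 95% intervals were computed and tested on simulated data. For H3K27me3 these read numbers, and the intervals from them, are less certain. PCR copies are not independent, so intervals cover counting error only. Of several regions at a gene, that with the most normalized reads gives its log2 ratio, and overlap meant at least 1 bp. Besides the 7 genes, named were the 3 list genes per mark and direction with the largest ratio among those with a region in a peak and 100 or more normalized reads in 1 library, and the 2 list genes nearest to each member. Neighbouring genes were named for their position. Alternatives were the gene window, a -log10 q of at least 10, the share of a peak inside the window, other regions per gene, a read minimum of 20 and centring on the median. Recentred counts and ratios over IgG were added after seeing the data. Python 3.11.15, pandas 2.3.3 and scipy 1.17.1 were used.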

Additional observations from a re-analysis of the deposited data

How the results depend on the processing

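Centring on the median over genes with a called region moved most ratios. It left H3K4me3 log2 values of 0.23 at CDKN1A, 0.11 at CDKN1B, 0.12 at CDKN2D and -1.68 at CDKN1C, reversed CDKN2C to -0.17, and left 0 for H3K27me3 at CDKN2A. With directions taken relative to that median, a choice made after seeing the data, 2 genes were higher in OTX2high (4 before) and 0 had higher H3K27me3 in OTX2low (1 before). Ratios over IgG, also added later, gave 1.04 at CDKN2C and 0.89 at CDKN1B, the latter from the region 1232 bp past the gene's end. At the CDKN1B region 1033 bp past the start they were nearly level in the authors' deposited table, at 39.1 in OTX2high and 37.6 in OTX2low. With only regions that overlap a peak, 1 gene was higher in OTX2low in H3K4me3 (2 before). At a -log10 q of at least 10, 0 genes kept an H3K27me3 peak in the list labelled OTX2low (2 before), and in the list labelled OTX2high CDKN2A had 3 peaks, CDKN2B 5 and CDKN1C 0. In all, 11 main values moved, 1 reversed and 63 stayed within the limits used, and at single genes 13 peak counts moved by more than 1.5 times and 99 did not. Without the window extension CDKN2D had no region and so no value. The cause of these changes was not tested. No paired analysis was possible because each mark and condition had 1 library, which is also why no library could be left out. Depth limits the CDKN2B ratio, at 2 and 16 reads.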
